A study of Homo sapiens with 6 samples.

Results

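The genes described here are the HOX genes of the 4 human clusters, taken as every row of the deposited expression table whose symbol is HOX followed by A, B, C or D and a number. The rule found 37 of the 23569 listed genes, with 11 from HOXA, 9 from HOXB, 8 from HOXC and 9 from HOXD. GENCODE release 29 annotates 39 such genes, and HOXB1 and HOXC12 had no row. RNA-seq was performed on TFK1, a cell line from an extrahepatic bile duct cancer (cholangiocarcinoma), with 3 libraries labelled oeNC (negative control) and 3 labelled oeSTUB1 (overexpression of STUB1, an E3 ubiquitin ligase that also acts as a co-chaperone). Both groups were made by lentiviral transduction followed by puromycin selection, and no other treatment was given. As far as the sources tell, each group was 1 selected population, so the population and STUB1 cannot be told apart. The comparison asks which genes differ in expression when STUB1 is overexpressed.

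HOX genes encode homeodomain transcription factors that give cells along the body axis their positional identity. Within a cluster the genes lie in the order of their paralog numbers, low numbers being used toward the head and high numbers toward the tail, and genes of equal number in different clusters are paralogs of each other. Adult and cancer cells keep much of their HOX pattern, which Polycomb proteins hold silent, trithorax and MLL proteins keep active, and retinoic acid and caudal proteins set up in the embryo. CpG-rich promoters are common in the clusters and DNA methylation there is often altered in tumors.

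STUB1 itself was 32.9, 33.0 and 30.9 FPKM (fragments scaled by gene length and by library total) in oeNC and 61.4, 75.0 and 61.9 in oeSTUB1, a log2 fold change of 1.03 ± 0.10 (SE, adjusted p = 0.00064). Library totals, recovered from the FPKM values, lay between 33106564 and 36744521 fragments. The oeSTUB1 replicate 2 library stood apart, since its chi-square per degree of freedom against the other oeSTUB1 libraries was 76.7 and 71.1, against 3.37 to 9.82 for the other pairs of replicates. Of the bile duct markers, KRT7, KRT8, KRT18 and CDH1 were each at 22.3 FPKM or more in all 6 libraries, KRT19 was at 0.374 to 0.529 FPKM in oeNC and 2.51 to 3.41 in oeSTUB1, and CFTR was too low to test. Of 10 bile duct markers tested, 1 was higher and 7 were lower in oeSTUB1 at an adjusted p under 0.05, where 7.01% of all genes tested were higher and 6.59% lower. Of 11 listed fibroblast markers 4 could be tested and 1, FBLN1, was lower (summed level 23.0 to 24.9 FPKM in oeNC and 19.4 to 23.7 in oeSTUB1). Of 10 blood and endothelial markers 5 could be tested and 0 were called by limma or voom (1 lower at an unadjusted p under 0.05), with a summed level of 5.46 to 7.44 against 5.72 to 6.87 FPKM. The part of these marker differences in the HOX results was not tested.

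The summed level of all 37 HOX genes was 65.7, 67.0 and 70.7 FPKM in oeNC and 64.9, 73.6 and 66.6 FPKM in oeSTUB1. The groups overlapped, and the means of 67.8 ± 2.63 and 68.3 ± 4.61 FPKM (SD, n = 3 each) lay within the spread of the libraries. In bulk libraries a change in the number of cells that express a gene and a change in its RNA per cell cannot be told apart. Fragments were found in every library for 31 of the 37 genes. The 5 genes HOXB7, HOXA3, HOXB6, HOXA5 and HOXB9 held 47.0% of the summed level. The 8 genes with a mean under 0.1 FPKM, HOXA9, HOXA11, HOXC11, HOXD1, HOXD3, HOXD9, HOXD12 and HOXD13, were not tested and had 0 to 14 fragments in a library.

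**Figure D1:**
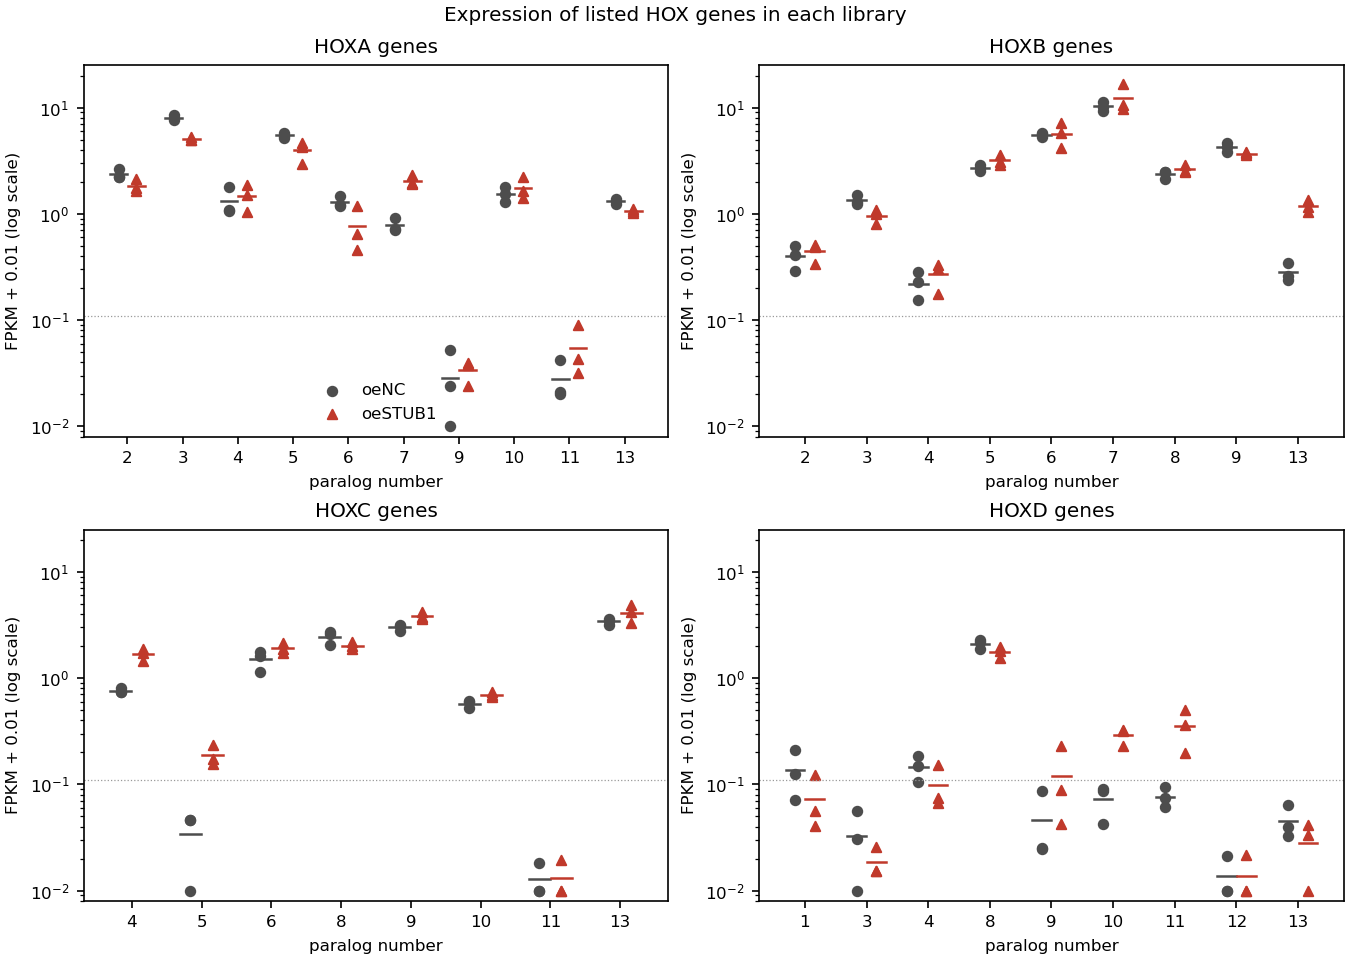
FPKM of listed HOX genes on a log axis (0.01 added), by paralog number and cluster, with circles for the 3 oeNC libraries, triangles for the 3 oeSTUB1 libraries and short lines for group means. The dotted line marks a mean of 0.1 FPKM, under which genes were not tested; HOXB13 rises from 0.228 to 0.332 FPKM in oeNC to between 1.03 and 1.33 in oeSTUB1.

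Of the 29 HOX genes tested, 6 (20.7%) were higher in oeSTUB1 at an adjusted p under 0.05 and 2 (6.90%) were lower. Among all 15353 genes tested the shares were 7.01% higher and 6.59% lower. The higher genes were HOXB13, HOXD11, HOXA7, HOXD10, HOXC5 and HOXC4, and the lower ones included HOXA3. All 6 higher genes passed a log2 fold change of 1, which 2.79% of all genes did in that direction, and neither lower gene changed by that much. That count depends on the pseudocount of 0.1 FPKM, since with a pseudocount of 1 the log2 fold changes were 0.78 for HOXA7, 0.77 for HOXB13, 0.61 for HOXC4 and 0.20 to 0.33 for HOXC5, HOXD10 and HOXD11, and none passed 1. Every oeSTUB1 library lay above every oeNC library for 10 HOX genes (34.5%, against 21.5% of all genes) and below for 7 (24.1%, against 17.3%). The median log2 fold change was 0.15 over the tested HOX genes and 0.02 over all genes, and the median size of the change regardless of sign was 0.34 against 0.21. All genes were not matched to the HOX genes for level. The HOX medians also include low genes that passed the filter through a single group, so nothing particular to HOX genes is read from them.

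These counts depend on the low genes. HOXC5, HOXD10 and HOXD11 averaged under 0.1 FPKM in oeNC and passed the filter through their oeSTUB1 values, and HOXD4 passed through its oeNC values. Among the 25 HOX genes with both group means at 0.1 FPKM or more, 3 were higher and 2 were lower, where 6.51% and 6.31% of all such genes were. With a filter at a mean of 1 FPKM, 2 of 21 HOX genes were higher, HOXA7 and HOXC4. Without oeSTUB1 replicate 2, 5 of 28 were higher and 4 were lower, the additional lower genes being HOXA2 (adjusted p = 0.025) and HOXA5 (adjusted p = 0.023). Without oeNC replicate 1 or without oeSTUB1 replicate 1, 3 were higher. Calls over all genes also changed when a library was left out and were most numerous without oeSTUB1 replicate 2, as given below. Nothing particular to HOX genes is read from the counts with another filter or without a library.

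**Figure D2:**
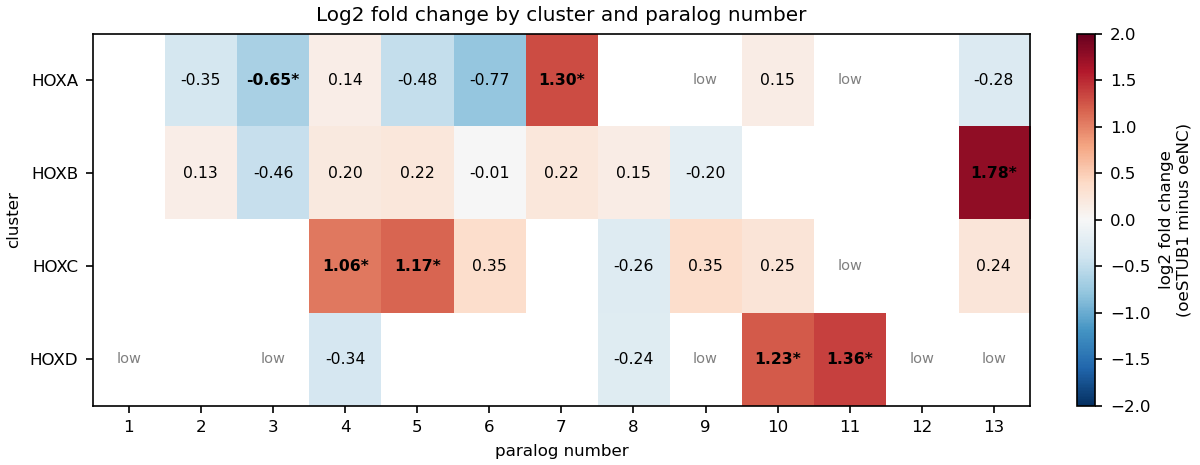
Log2 fold change (oeSTUB1 minus oeNC, colour scale) of tested HOX genes, with clusters in rows and paralog numbers in columns. A star marks an adjusted p under 0.05, "low" a listed gene too low to test and an empty cell no value shown. A starred fall lies at HOXA3 and the starred rises lie at paralog numbers 4, 5, 7, 10, 11 and 13. Those at 5, 10 and 11 are HOXC5, HOXD10 and HOXD11, which passed the filter only through oeSTUB1.

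By paralog number, and beside the 7.01% of all genes that were higher and the 6.59% that were lower, the 4 tested genes of numbers 2 to 3 included 1 lower in limma (2 in voom, and 3 at an unadjusted p under 0.05) and, in limma, voom and at an unadjusted p under 0.05, 0 higher, and their median log2 fold change was -0.40. Their summed level fell from between 11.7 and 12.6 FPKM in oeNC to between 8.06 and 8.59 FPKM in oeSTUB1, with no overlap. The 15 tested genes of numbers 4 to 8 included 3 higher and 0 lower in limma and in voom (2 lower at an unadjusted p under 0.05), with a median of 0.15. Of these, HOXC5 passed the filter only through oeSTUB1 and HOXD4 only through oeNC. The sums of 35.8 to 38.7 and 37.5 to 44.3 FPKM overlapped. The 9 tested genes of numbers 9 to 13 included 3 higher and, in limma, voom and at an unadjusted p under 0.05, 0 lower, with a median of 0.25. Of the 3 higher genes, HOXD10 and HOXD11 passed the filter only through oeSTUB1, so their direction followed from the filter and nothing is read from the count or the median. The sums did not overlap (13.4 to 15.3 FPKM in oeNC, 16.0 to 18.0 in oeSTUB1). HOXA3, the second most abundant HOX gene, makes up much of the sum of numbers 2 to 3. Differences between these classes were not tested.

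Clusters differed in the direction of their sums. The HOXA cluster (GRCh38, chr7:27100354-27200106 from HOXA2 to HOXA13, minus strand) summed to 26.0, 25.4 and 27.2 FPKM in oeNC and 21.7, 22.3 and 19.1 in oeSTUB1, a log2 ratio of -0.32 without overlap. The HOXC cluster (chr12:53938765-54056030, plus strand) summed to 11.1, 11.8 and 12.1 FPKM in oeNC and 13.2, 15.1 and 14.9 in oeSTUB1, a log2 ratio of 0.30 without overlap. The sums of HOXB (chr17:48528526-48729178, minus strand), 25.8, 27.0 and 29.1 against 27.3, 33.3 and 30.0 FPKM, overlapped. The share of HOXA in the whole HOX sum fell from 37.9 to 39.6% in oeNC to 28.7 to 33.4% in oeSTUB1, while HOXB held 39.3 to 41.1% and then 42.1 to 45.3%, and HOXC 16.9 to 17.7% and then 20.3 to 22.4%. A lower share of HOXA raises the other shares, so no rise of HOXB is read from its share. Within HOXA, HOXA3 averaged 7.99 FPKM in oeNC and 5.04 in oeSTUB1, and HOXA7 0.772 and 2.05. The HOXA sum is therefore no shift shared by all its genes. HOXD (chr2:176092891-176190907, plus strand) was the weakest cluster, at 2.32 to 2.75 FPKM in oeNC and 2.57 to 2.77 in oeSTUB1. For single sums of 3 libraries against 3, an exact two-sided permutation test cannot go below 0.1, so no p is given.

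**Figure D3:**
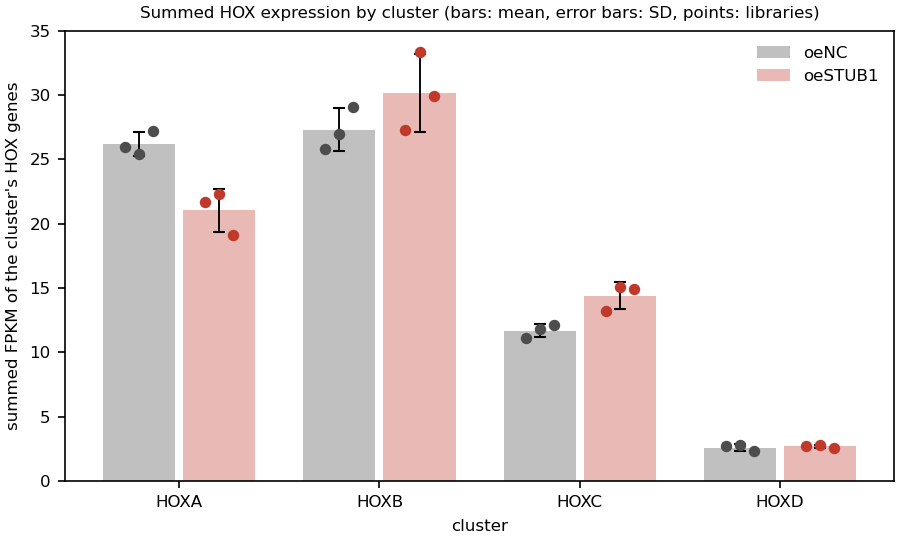
Summed FPKM of the listed HOX genes of each cluster, with bars for the means, error bars for the SD and points for the 3 libraries of each group. The oeSTUB1 points lie below the oeNC points for HOXA and above them for HOXC, and the points of the groups overlap for HOXB and HOXD.

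HOXA held genes called in both directions. HOXA3, a gene of the hindbrain and pharyngeal arches, was 7.58, 7.88 and 8.52 FPKM in oeNC and 4.98, 4.90 and 5.26 in oeSTUB1 (1.58-fold lower, log2 fold change -0.65 ± 0.09, adjusted p = 0.0030). HOXA7, a mid-cluster gene, was 0.700, 0.902 and 0.715 FPKM in oeNC and 2.29, 1.95 and 1.90 in oeSTUB1 (2.65-fold higher, log2 fold change 1.30 ± 0.15, adjusted p = 0.0014). The HOXA7 libraries held 49 to 63 fragments in oeNC and 130 to 159 in oeSTUB1, and the groups were far apart for both genes. Both calls held under all 13 alternative settings.

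HOXA2, HOXA4, HOXA5, HOXA6, HOXA10 and HOXA13 did not pass the test. HOXA2, which patterns the second pharyngeal arch, was 2.61, 2.21 and 2.21 FPKM in oeNC and 1.62, 2.11 and 1.74 in oeSTUB1 (log2 fold change -0.35, adjusted p = 0.14), with no overlap. HOXA5, known from lung development, was 5.76, 5.18 and 5.41 FPKM in oeNC and 4.27, 4.59 and 2.96 in oeSTUB1 (log2 fold change -0.48, adjusted p = 0.094), also with no overlap. HOXA6, between HOXA5 and HOXA7, was 1.19, 1.17 and 1.46 FPKM in oeNC and 1.17, 0.641 and 0.444 in oeSTUB1 (log2 fold change -0.77, adjusted p = 0.13, and 0.022 without oeSTUB1 replicate 1). The HOXA2 and HOXA5 groups did not touch, whereas oeSTUB1 replicate 1 of HOXA6 lay within the oeNC values. HOXA4 was 1.08, 1.06 and 1.79 FPKM in oeNC and 1.50, 1.84 and 1.02 in oeSTUB1, and HOXA10, a gene of the uterus and of blood progenitors, was 1.29, 1.78 and 1.54 against 1.40, 2.19 and 1.62. HOXA13, the last gene of the cluster, active in the hindgut, was 1.22, 1.37 and 1.32 FPKM in oeNC and 1.06, 1.01 and 1.11 in oeSTUB1 (log2 fold change -0.28, adjusted p = 0.19). HOXA4 and HOXA10 overlapped between groups and HOXA13 did not. HOXA9 and HOXA11 had few counted fragments beside their neighbor HOXA10, at most 3 and 7 in a library. HOXA9 shares its annotated span with HOXA10 and HOXA10-AS, and HOXA11 with HOXA11-AS. Reads that overlap several genes may have been left out of the counts, so silence is not read from them.

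Upstream sequence is shown for HOXA7, which rose, for its neighbor HOXA6, which did not pass the test, and for an internal start of HOXA3, which fell, because CpG content is the promoter feature that the DNA methylation question bears on. Sequences are from RefSeq on GRCh38.p14, read 5′ to 3′ on the minus strand, and capitals mark CG. The HOXA7 stretch (chr7:27156755-27156925, 171 bases, 20 CG) ends 79 bases before the start, since the bases after it lie in a HOXA7 exon of GENCODE. The HOXA6 stretch (chr7:27147775-27148024, 250 bases, 27 CG) and that of HOXA3 (chr7:27118358-27118607, 250 bases, 4 CG) end at the start and touch no exon of GENCODE. Each stretch lies inside the GENCODE span of its gene, so the HOXA7 and HOXA6 starts are internal too. The bases after the HOXA3 start matched no GENCODE transcript of that gene.
HOXA7: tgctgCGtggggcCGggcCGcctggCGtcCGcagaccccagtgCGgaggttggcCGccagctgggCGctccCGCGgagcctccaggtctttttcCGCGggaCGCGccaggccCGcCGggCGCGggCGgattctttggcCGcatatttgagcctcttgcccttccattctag
HOXA6: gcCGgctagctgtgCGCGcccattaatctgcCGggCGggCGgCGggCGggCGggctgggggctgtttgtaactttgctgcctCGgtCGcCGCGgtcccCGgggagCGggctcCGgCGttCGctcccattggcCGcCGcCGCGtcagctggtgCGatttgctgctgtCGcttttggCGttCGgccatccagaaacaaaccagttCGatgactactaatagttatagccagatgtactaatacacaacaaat
HOXA3: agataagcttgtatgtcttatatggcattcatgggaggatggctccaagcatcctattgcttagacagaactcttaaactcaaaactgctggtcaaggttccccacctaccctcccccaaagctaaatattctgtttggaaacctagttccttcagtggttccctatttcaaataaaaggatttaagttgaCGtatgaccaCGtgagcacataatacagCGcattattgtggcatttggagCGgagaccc
The RefSeq table gave 7 start windows for HOXA3, with 0 to 26 CG in 250 bases, and the deposited values do not separate its transcripts. The HOXA3 windows followed by bases that match a GENCODE transcript of the gene held 0 and 19 CG. Nothing is therefore read from the CG content of the HOXA3 stretch shown beside those of HOXA7 and HOXA6.

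In HOXB a single gene at the far end passed the test. HOXB13, a transcription factor of the prostate and distal colon (chr17:48724763-48729178), was 0.228, 0.332 and 0.251 FPKM in oeNC and 1.03, 1.33 and 1.15 in oeSTUB1. The libraries held 24, 35 and 28 fragments in oeNC and 108, 134 and 119 in oeSTUB1. All oeSTUB1 libraries were far above the oeNC ones (4.33-fold, log2 fold change 1.78 ± 0.18, adjusted p = 0.00089), the largest log2 fold change among the HOX genes in this fit. The call held under all 12 alternatives in which the gene was tested. HOXB13 is separated from HOXB9 by a long stretch without HOX genes and overlaps no other annotated gene.

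HOXB7, the most abundant HOX gene and a growth-promoting factor in several tumors, was 9.30, 10.2 and 11.2 FPKM in oeNC and 9.58, 16.5 and 10.6 in oeSTUB1 (log2 fold change 0.22, adjusted p = 0.49). The high value is oeSTUB1 replicate 2, and without it the log2 fold change was -0.01. HOXB6 was 5.79, 5.22 and 5.66 FPKM in oeNC and 5.70, 4.12 and 7.19 in oeSTUB1, with replicate 2 the lowest, and its groups overlapped. HOXB3 was 1.23, 1.29 and 1.49 FPKM in oeNC and 0.980, 0.787 and 1.08 in oeSTUB1 (log2 fold change -0.46, adjusted p = 0.10, and 0.045 with voom). HOXB3 did not overlap between groups, and with HOXA3 it gave both tested genes of paralog number 3 a negative sign. HOXB5 was 2.87, 2.53 and 2.71 against 2.89, 3.54 and 3.09 FPKM, HOXB8 was 2.13, 2.49 and 2.48 against 2.52, 2.88 and 2.49, and HOXB9 was 3.84, 4.22 and 4.64 against 3.78, 3.70 and 3.54. None of these 3 genes overlapped between groups (HOXB8 by less than the printed digits show), but the adjusted p-values were 0.25, 0.45 and 0.26. HOXB2 and HOXB4 averaged 0.211 to 0.434 FPKM in either group and overlapped.

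In HOXC the called genes were HOXC4 and HOXC5, and HOXC5 passed the filter only through its oeSTUB1 values, so no pattern by position is read. HOXC4, expressed in lymphoid and epithelial cells, was 0.723, 0.724 and 0.798 FPKM in oeNC and 1.86, 1.71 and 1.44 in oeSTUB1, from 59 to 69 and 116 to 151 fragments (2.23-fold higher, log2 fold change 1.06 ± 0.14, adjusted p = 0.0031). This call held under all 13 alternatives. HOXC5 had 2, 2 and 0 fragments in oeNC and 9, 12 and 8 in oeSTUB1. Its observed oeSTUB1 mean was 3.37-fold above a floor of 3 fragments per oeNC library. That ratio leaves out the sampling error of the oeSTUB1 counts, through which the gene passed the filter, so it is no lower bound. The fitted log2 fold change of HOXC5, 1.17 (adjusted p = 0.027), is no bound either. The call was lost without oeNC replicate 1, 2 or 3 (adjusted p = 0.071, 0.074 and 0.090). It was also lost with the replicate block (adjusted p = 0.051) and with a pseudocount of 0.01 (adjusted p = 0.054). HOXC5 lies inside the annotated span of HOXC4, and RefSeq gives both the same 250-base start window, so the counting of fragments between them is uncertain.

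The remaining HOXC genes did not pass. HOXC9 came closest, at 2.78, 3.17 and 3.08 FPKM in oeNC and 3.62, 4.20 and 3.77 in oeSTUB1 (log2 fold change 0.35 ± 0.11, adjusted p = 0.072), with no overlap. HOXC6, a gene raised in several carcinomas, was 1.14, 1.74 and 1.59 FPKM in oeNC and 1.72, 2.12 and 1.85 in oeSTUB1, and HOXC8 was 2.69, 2.04 and 2.58 against 1.86, 2.00 and 2.17. HOXC13, known for its role in hair and nails, was 3.18, 3.61 and 3.46 FPKM in oeNC and 3.29, 4.19 and 4.81 in oeSTUB1 (log2 fold change 0.24, adjusted p = 0.32). HOXC6, HOXC8 and HOXC13 overlapped between groups. HOXC10 averaged 0.562 and 0.686 FPKM without overlap (adjusted p = 0.31), and HOXC11 had at most 1 fragment in a library.

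In HOXD, HOXD8 carried most of the level and the rises were in neighbors with few counted fragments. HOXD8 was 2.17, 2.26 and 1.88 FPKM in oeNC and 1.54, 1.96 and 1.79 in oeSTUB1 (log2 fold change -0.24, adjusted p = 0.28). HOXD10, a limb and hindlimb nerve gene, was 0.0323, 0.0808 and 0.0762 FPKM in oeNC and 0.309, 0.220 and 0.312 in oeSTUB1, from 2, 5 and 5 fragments and 19, 13 and 19. HOXD11, a gene of the forearm and kidney, was 0.0507, 0.0846 and 0.0638 FPKM in oeNC and 0.494, 0.354 and 0.189 in oeSTUB1, from 3, 5 and 4 fragments and 29, 20 and 11. For both genes all oeSTUB1 libraries were above all oeNC libraries, and both passed the filter only through oeSTUB1. HOXD10 had a log2 fold change of 1.23 ± 0.25 (adjusted p = 0.016) and HOXD11 one of 1.36 ± 0.30 (adjusted p = 0.024) on the log2(FPKM + 0.1) scale, which understates the change of such low genes. The HOXD10 call was lost without oeNC replicate 1 (adjusted p = 0.065), oeSTUB1 replicate 1 (0.059) or oeSTUB1 replicate 3 (0.053). The HOXD11 call was lost without oeNC replicate 1, 2 or 3 (adjusted p = 0.087, 0.067 and 0.080) or oeSTUB1 replicate 1 (adjusted p = 0.071). The annotated spans of HOXD10 and HOXD11 overlap. HOXD9, next to HOXD10, had 5, 1 and 1 fragments in oeNC and 14, 2 and 5 in oeSTUB1, with overlap. The median log2 fold change of the 1031 tested genes of chromosome 2 was -0.21, while that of the chromosomes of HOXA, HOXB and HOXC was between -0.04 and 0.05.

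The upstream window of HOXD11 is shown because it was the HOXD gene with the largest log2 fold change. It is RefSeq sequence of GRCh38.p14 (chr2:176107030-176107279, plus strand, 250 bases ending at the start, 23 CG in capitals) and touches no exon of GENCODE. The window lies inside the GENCODE span of HOXD11 (chr2:176104216-176109754). It therefore belongs to an internal start, and the bases after that start matched no GENCODE transcript of the gene.
HOXD11: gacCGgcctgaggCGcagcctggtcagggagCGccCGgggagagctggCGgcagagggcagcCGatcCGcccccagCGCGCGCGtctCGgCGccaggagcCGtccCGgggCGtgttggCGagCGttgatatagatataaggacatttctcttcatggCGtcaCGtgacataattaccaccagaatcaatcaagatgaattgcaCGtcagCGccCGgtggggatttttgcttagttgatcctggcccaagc
RefSeq gave 25 distinct windows of 250 bases before a start for 19 HOX genes. The other 18 genes, all those of HOXB (HOXB13 included) among them, had none. In HOXC only HOXC4 and HOXC5 had a window, which they share, so the windows describe HOXA and HOXD almost alone. The HOX windows held 0 to 40 CG with a median of 20, against a median of 11 over all 35116 windows. Motifs were searched on both strands. AGGTCA, a site of retinoid receptors, was in 0 HOX windows and in 12.1% of all windows. TTTAT, the core read by caudal proteins, was in 13 HOX windows (52.0%) and in 32.7% of all, and TGATNNAT, a HOX and PBX core, in 2 and in 6.47%. Windows of the same gene were counted separately, and HOXA3 supplied more windows and more TTTAT hits than any other HOX gene. Nothing is therefore read from the difference in shares. TTTAT was absent from the HOXA7, HOXA6 and HOXD11 windows and present in the HOXA3 window printed above. Some other HOXA3 windows lacked it, so the contrast depends on the window chosen.

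**Figure D4:**
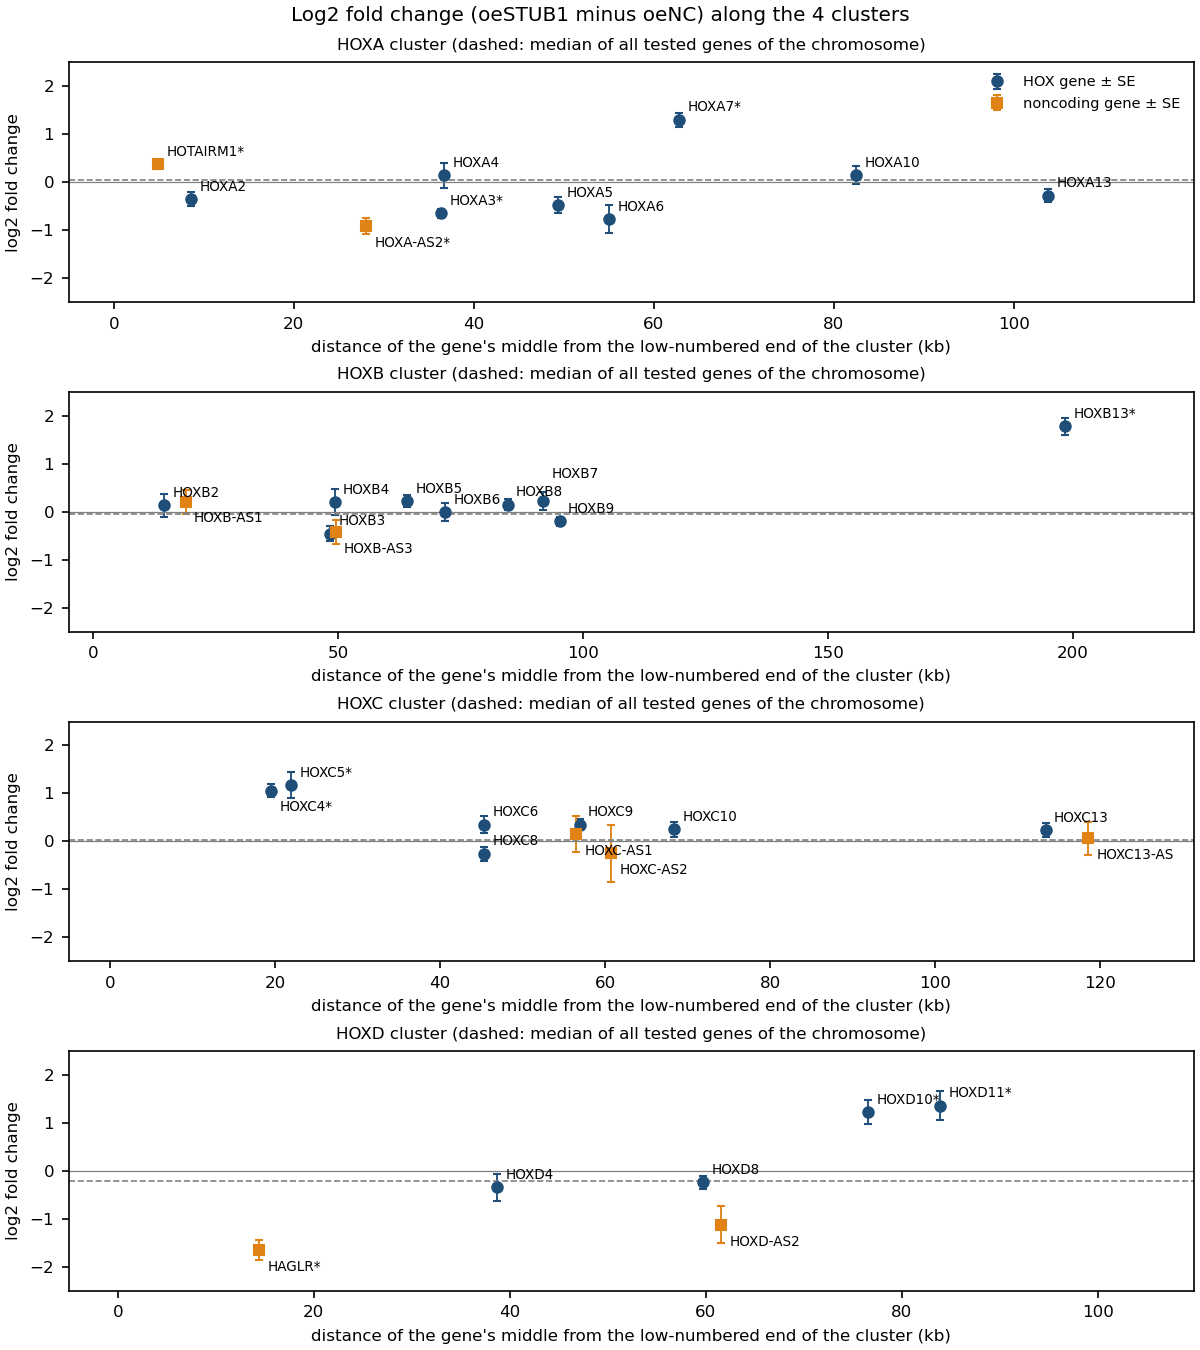
Log2 fold change ± SE of tested HOX genes (circles) and cluster noncoding genes (squares) against the distance in kb of each gene's middle from the low-numbered end of its cluster. A star marks an adjusted p under 0.05 and the dashed line the median of the chromosome; HOXA7 at 1.30 stands between HOXA6 at -0.77 and HOXA10 at 0.15.

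Noncoding RNAs are made from the opposite strand at several places in the clusters. A list of 28 cluster transcripts held such RNAs together with microRNAs of the HOX strand, lincRNAs and a readthrough transcript, HOXA10-HOXA9. Of the 28, 19 were listed and 9 tested, all of them opposite in strand to HOX genes. Among these 1 was higher and 2 were lower (7.01% and 6.59% of all genes), with a median log2 fold change of -0.25. HAGLR, antisense to HOXD1 and HOXD3, was 0.853, 0.799 and 1.03 FPKM in oeNC and 0.293, 0.175 and 0.188 in oeSTUB1 (log2 fold change -1.65 ± 0.21, adjusted p = 0.0021, and -0.64 with a pseudocount of 1). HOXA-AS2, antisense to HOXA3 and HOXA4, was 7.64, 7.79 and 6.91 FPKM in oeNC and 3.63, 5.13 and 3.24 in oeSTUB1 (log2 fold change -0.91 ± 0.17, adjusted p = 0.011, and 0.051 to 0.054 without oeNC replicate 1 or 2). HOTAIRM1, an antisense gene of the HOXA cluster involved in myeloid HOXA activation, was 5.38, 5.39 and 5.50 FPKM in oeNC and 7.26, 7.58 and 6.31 in oeSTUB1 (log2 fold change 0.37 ± 0.10, adjusted p = 0.044). The HOTAIRM1 call was lost without oeNC replicate 1, 2 or 3 (adjusted p = 0.16, 0.16 and 0.12) or oeSTUB1 replicate 1 (0.11), and with no filter, median-ratio scaling, the replicate block and voom (0.059, 0.058, 0.098 and 0.096). HOXA-AS2 fell beside HOXA3, which also fell. The strand setting of the counting was not given, and 33 of the 37 HOX genes overlap another annotated gene, so fragments of sense and antisense partners cannot be told apart.

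Cofactors of the TALE class (PBX, MEIS and relatives) bind DNA together with HOX proteins. Of 11 tested, 1 was lower and 0 were higher in limma and in voom (1 higher at an unadjusted p under 0.05), where 6.59% of all genes were lower, with a median log2 fold change of -0.07. MEIS1, a partner of HOXA proteins in leukemia, was 1.09, 1.04 and 1.40 FPKM in oeNC and 0.591, 0.595 and 0.654 in oeSTUB1 (log2 fold change -0.83 ± 0.16, adjusted p = 0.014). Its call was lost without oeNC replicate 1 or 3 (highest adjusted p = 0.057).

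Among the chromatin regulators, 3 of 31 Polycomb genes were higher and 0 were lower in limma and in voom (3 lower at an unadjusted p under 0.05), and 1 of 25 trithorax and MLL genes was higher and 1 lower. Over all genes 7.01% were higher and 6.59% lower, and nothing particular to these lists is read from their counts. The median log2 fold changes were 0.02 and -0.14. EPOP, an accessory factor of Polycomb complex PRC2, was 3.74, 3.78 and 3.91 FPKM in oeNC and 5.35, 6.24 and 4.65 in oeSTUB1 (log2 fold change 0.49 ± 0.12, adjusted p = 0.036). CBX2, a reader subunit of PRC1, was 4.58, 4.18 and 4.07 FPKM in oeNC and 5.56, 5.37 and 6.05 in oeSTUB1 (0.40 ± 0.10, adjusted p = 0.034). PHF19, a PRC2 accessory factor, was 5.93, 5.72 and 6.16 FPKM in oeNC and 8.04, 8.03 and 7.04 in oeSTUB1 (0.37 ± 0.09, adjusted p = 0.036). The groups of all 3 genes did not overlap. Each of these 3 calls was lost without any one oeNC library, without oeSTUB1 replicate 1 and with the replicate block, that of CBX2 also without oeSTUB1 replicate 3 and that of EPOP also with no filter, with adjusted p-values up to 0.16. EZH2, the PRC2 methyltransferase, averaged 8.75 and 9.93 FPKM and did not pass (adjusted p = 0.28). WDR5, a core subunit of MLL complexes, was 11.3, 11.7 and 10.6 FPKM in oeNC and 15.7, 17.0 and 14.5 in oeSTUB1 (log2 fold change 0.48 ± 0.09, adjusted p = 0.011, and up to 0.057 without oeNC replicate 1 or 3). MLLT3, an elongation factor fused to MLL in leukemia, was 7.93, 7.89 and 7.90 FPKM in oeNC and 5.22, 4.60 and 5.40 in oeSTUB1 (log2 fold change -0.63 ± 0.09, adjusted p = 0.0041).

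Of 16 tested genes that make, break down or read retinoic acid or that encode caudal and related factors, 3 were higher and 4 were lower (7.01% and 6.59% of all genes), with a median log2 fold change of -0.02. CYP26B1, which degrades retinoic acid, was 9.65, 10.7 and 11.8 FPKM in oeNC and 4.58, 3.98 and 4.80 in oeSTUB1 (log2 fold change -1.25 ± 0.11, adjusted p = 0.00052). CDX2, the intestinal caudal factor, had 28, 58 and 63 fragments in oeNC and 2, 6 and 2 in oeSTUB1 (0.309 and 0.0219 FPKM on average, log2 fold change -1.71 ± 0.29, adjusted p = 0.0082). It passed the filter only through its oeNC values, and its log2 fold change was -0.35 with a pseudocount of 1 and -3.35 with 0.01. RARB, a retinoic acid receptor and itself a target of retinoic acid, was 11.7, 11.8 and 11.3 FPKM in oeNC and 8.89, 7.31 and 7.06 in oeSTUB1 (log2 fold change -0.58 ± 0.10, adjusted p = 0.010), and RDH10, which makes retinaldehyde, was the remaining lower gene (-0.56, adjusted p = 0.028). The 3 higher genes were CRABP2, STRA6 and RXRA. No division by function is read, since the receptor RARB was lower, and the receptors RARA, RARG and RXRB and the carrier CRABP1 did not pass. CRABP2, which carries retinoic acid to the nucleus, was 0.768, 0.330 and 0.389 FPKM in oeNC and 1.69, 2.10 and 1.06 in oeSTUB1 (log2 fold change 1.55 ± 0.32, adjusted p = 0.019, and 0.80 with a pseudocount of 1). STRA6, the retinol uptake receptor, was 8.86, 8.88 and 10.2 FPKM in oeNC and 12.5, 13.9 and 14.0 in oeSTUB1 (0.53 ± 0.09, adjusted p = 0.0094). RXRA, the partner of retinoic acid receptors, was 7.92, 7.65 and 7.60 FPKM in oeNC and 9.90, 9.31 and 10.2 in oeSTUB1 (0.34 ± 0.08, adjusted p = 0.030). None of these groups overlapped. The CYP26B1 call held under all 13 alternatives. The calls of RARB and STRA6 were lost without oeNC replicate 1 or 2 (adjusted p up to 0.059), that of CRABP2 without oeNC replicate 2 or 3 or oeSTUB1 replicate 1 and with no filter (up to 0.078), and that of RXRA with the replicate block and without any library except oeSTUB1 replicate 2 (up to 0.14).

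**Figure D5:**
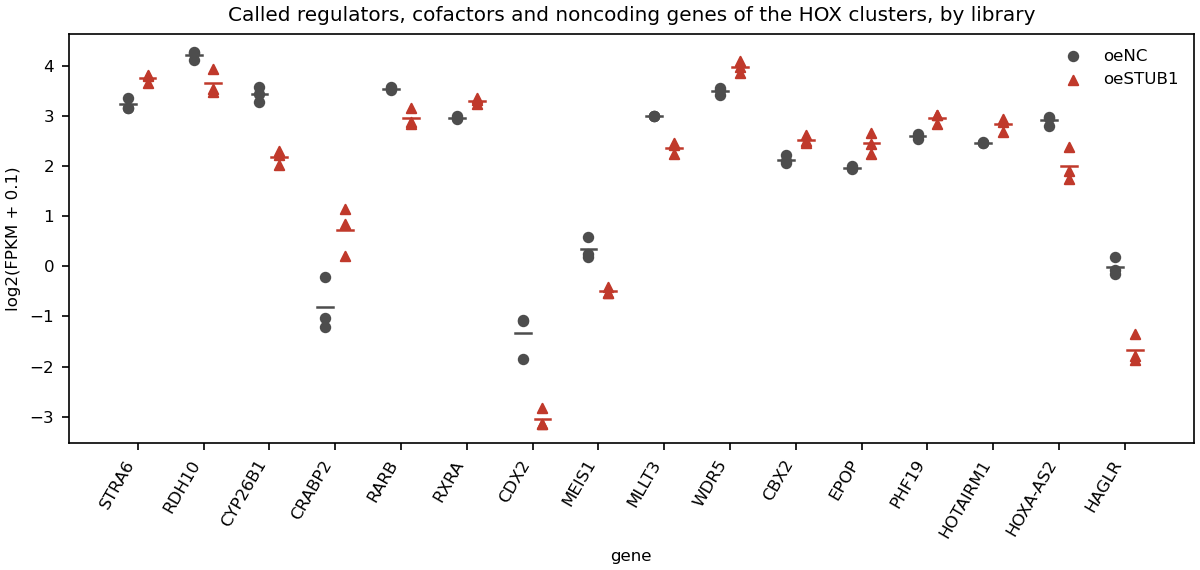
Level of the called HOX regulators, cofactors and noncoding genes as log2(FPKM + 0.1), with circles for the 3 oeNC libraries, triangles for the 3 oeSTUB1 libraries and short lines for group means. No gene shown overlaps between groups; on this scale CDX2 and HAGLR show the largest falls (-1.71 and -1.65) and CRABP2 the largest rise (1.55), whereas with a pseudocount of 1 CYP26B1 fell by more (-1.10) than CDX2 (-0.35) or HAGLR (-0.64).

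Protein-coding genes other than HOX genes, inside the clusters or up to 500 kb outside, numbered 47, of which 42 were listed and 31 tested. Among those tested, 1 was higher and 4 were lower (7.01% and 6.59% of all genes), with a median log2 fold change of 0.01. COPZ2, a coat protein subunit 490.5 kb from the low-numbered end of HOXB, was 0.344, 0.375 and 0.797 FPKM in oeNC and 1.70, 2.85 and 1.81 in oeSTUB1 (log2 fold change 1.91, adjusted p = 0.0064). TTLL6, a tubulin glutamylase 33.1 kb beyond HOXB13, went the other way from that gene, at 2.89, 3.04 and 3.15 FPKM in oeNC and 1.18, 0.856 and 1.80 in oeSTUB1 (log2 fold change -1.24, adjusted p = 0.012). ZNF385A, 313.1 kb from the low-numbered end of HOXC with other genes between, was 12.2, 12.7 and 13.0 FPKM in oeNC and 6.03, 6.14 and 7.98 in oeSTUB1 (log2 fold change -0.91, adjusted p = 0.0026). CALCOCO2, 101.8 kb beyond HOXB13, was 29.2, 30.2 and 31.8 FPKM in oeNC and 22.0, 23.0 and 23.4 in oeSTUB1 (-0.41, adjusted p = 0.0096). Both genes were lower in every oeSTUB1 library than in any oeNC library. SKAP2, 97.8 kb beyond the low-numbered end of HOXA, was also lower (log2 fold change -0.37, adjusted p = 0.023). The TTLL6 and CALCOCO2 calls were lost without oeNC replicate 2 or 3, with adjusted p-values up to 0.055 and 0.060. Both tested genes flanking HOXD, LNPK and MTX2, did not pass.

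The study concerns DNA methylation through UHRF1 and DNMT1. The paper reports that changing STUB1 left the protein levels of both unaltered. It proposes that STUB1 acts by ubiquitination of UHRF1, which raises its presence in the nucleus and its binding to DNMT1. The RNA levels given here do not measure these steps. UHRF1, which recruits DNMT1 to newly copied DNA, was 11.6, 11.1 and 10.7 FPKM in oeNC and 15.5, 12.2 and 12.9 in oeSTUB1 (log2 fold change 0.27, adjusted p = 0.13, and 0.024 without oeSTUB1 replicate 2). DNMT1 averaged 29.2 and 28.9 FPKM (adjusted p = 0.90). DNMT3B, a de novo methyltransferase that the paper does not mention, was 18.4, 18.5 and 15.4 FPKM in oeNC and 8.12, 5.41 and 7.42 in oeSTUB1 (log2 fold change -1.32 ± 0.16, adjusted p = 0.0017), below oeNC in all 3 libraries. No methylation was measured in these files, and the part of these genes in the HOX differences was not tested.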

How the data were processed

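TFK1 libraries were grouped by their labels, and the columns of the table were matched by name. The authors deposited FPKM values per gene symbol. Per the submitters' processing notes, fastp 0.20.1, HISAT2 2.1.0, HTSeq 0.11.2, R 3.2.0, DESeq2 1.22.2 and build GRCh38.p13 were used. Their annotation and strand setting are not given in the sources used here. HTSeq in its default mode leaves out reads that overlap several genes.

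Whole fragments were recovered from the FPKM values of all 23569 genes (recomputed values differed by at most 4.9e-06). The floor was 3 fragments per library. Groups were tested two-sided by limma 3.58.1 (R 4.3.3, moderated with a trend) on log2(FPKM + 0.1). The 15353 genes that averaged 0.1 FPKM or more entered, and p-values were adjusted over all of them by the Benjamini-Hochberg method. No pair of replicates agreed within sampling noise. Nothing in the sources says that they came from separate cultures, so p-values measure the spread between these samples, which may be technical.

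Values in every library were given for each HOX gene called or with a group mean of at least 1 FPKM, and for up to 3 called genes in each direction, by size of change, of the cofactor, chromatin, retinoid, noncoding and flanking lists, with CDX2 in fragments. STUB1, UHRF1 and DNMT1 were named as genes of the study. DNMT3B, which the paper does not mention, was added as a further DNA methylation gene. Marker genes are given by ranges and counts. RDH10, SKAP2, LNPK, MTX2, EZH2 and the markers KRT7, KRT8 and CFTR fall outside the rule and were chosen after their values were seen. The members and lists were chosen with earlier results of these data known. Alternatives were other pseudocounts, filters and scaling, a replicate block, voom on the fragments and leaving out each library. Positions are from GENCODE release 29, chromosomes of all genes from RefSeq (GRCh38.p14), which placed 96.7%. A listed HOX gene and a cofactor are not reported here by themselves, but counts and sums include them.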

Additional observations from a re-analysis of the deposited data

How the results depend on the processing

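Among the HOX genes, 4 calls (HOXA3, HOXA7, HOXB13 and HOXC4) held under each of the 13 alternatives in which they could be tested. Values for single genes of the other lists were read after seeing the data. With a filter at a mean of 1 FPKM, 2 HOX genes were higher, 1 noncoding gene and 0 cofactors were lower, as genes under that mean were not tested. With no filter 1 HOX gene was lower and 0 noncoding genes were higher. The noncoding rise (HOTAIRM1) also ended with median-ratio scaling, the replicate block and voom (0 higher each), and median-ratio scaling added 1 lower Polycomb gene. Equal replicate numbers did not mark pairs (correlations of deviations -0.149, -0.083 and 0.147). The replicate block left 5 higher and 1 lower HOX gene, 0 higher Polycomb genes, and 741 higher and 747 lower genes over all.

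Leaving out each library in turn gave 3 to 5 higher and 1 to 4 lower HOX genes, and 474 to 2273 higher and 453 to 1845 lower genes over all, with the highest counts over all without oeSTUB1 replicate 2. The ranges were 0 to 1 higher and 1 to 3 lower for noncoding genes, 0 to 4 lower for cofactors, 0 to 5 higher and 0 to 2 lower for Polycomb, 0 to 4 higher and 1 to 4 lower for trithorax, 0 to 4 higher and 2 to 4 lower for retinoid and caudal genes, and 1 to 2 higher and 1 to 9 lower for flanking genes. The cause was not tested. The cluster log2 ratios moved by less than the spread of the libraries, HOXD turning from 0.05 to -0.02 without oeNC replicate 3.

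Genes that were not called turned sign in a few fits. Leaving out single libraries gave log2 fold changes of -0.03 (without oeSTUB1 replicate 2) to 0.38 for HOXA4, -0.01 (without oeSTUB1 replicate 2) to 0.29 for HOXA10, -0.04 (without oeNC replicate 1) to 0.29 for HOXB2, -0.19 to 0.20 for HOXB6, -0.01 (without oeSTUB1 replicate 2) to 0.37 for HOXB7 and -0.11 to 0.11 (without oeSTUB1 replicate 2) for DNMT1. HOXB6 was at 0.20 without oeSTUB1 replicate 2, 0.03 without oeNC replicate 1 and 0.01 without oeNC replicate 3. Genes with few fragments, HOXC5, HOXD10 and HOXD11 among them, limit what depth can show. Changes of the 8 untested HOX genes were not detectable with these counts, which may leave out reads shared between genes.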
